A study of Mus musculus with 16 samples.

Results

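The Polycomb marks H2AK119ub1 and H3K27me3 were set against each other in hematopoietic stem cells (HSCs) of 20-month-old mice. Every autosomal region of either pooled list was taken, 16796 H2AK119ub1 regions and 15926 H3K27me3 regions, together 32722 of the 103862 autosomal regions in the 6 lists of the series. A region counted as overlapping when it shared at least 1 bp with a region of the other mark. Of the H2AK119ub1 regions 26.5% overlapped H3K27me3, and of the H3K27me3 regions 26.8% overlapped H2AK119ub1. At promoters, 1067 protein-coding genes carried both marks, 1926 carried H2AK119ub1 alone and 632 carried H3K27me3 alone. Most genes of the LIM homeobox, NKX, T-box and PAX families of transcription factors were in the group with both marks.

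The cells came from bone marrow of female C57BL/6 mice aged 10 weeks or 20 months, without any genetic change or treatment. They were sorted as lineage-negative, Sca-1-positive and c-kit-positive cells that also carried CD150 but not CD34, CD48 or Flt3, and bone marrow of several mice was pooled for the sort. ChIP-seq, the sequencing of DNA bound by immunoprecipitated histones, was done for H2AK119ub1, H3K27me3 and H3K4me3 with 2 libraries per mark and age, besides input DNA. The files give 1 pooled list per mark and age, so no value below has a replicate and no difference could be tested. The 95% intervals are Wilson intervals for shares and order-statistic intervals for medians. They cover counting error over regions or genes, which are neither independent nor replicates.

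H2AK119ub1 is a ubiquitin added to histone H2A by Polycomb repressive complex 1 (PRC1), and H3K27me3 is a methylation of histone H3 made by Polycomb repressive complex 2 (PRC2). Some forms of each complex bind the mark made by the other, whereas other forms of PRC1 are brought to DNA without H3K27me3. Both marks are known from the silent promoters of developmental regulators, which are rich in CpG, and H3K4me3 is known from active promoters. A promoter with H3K4me3 and H3K27me3 together is called bivalent.

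The sequences under the widest regions are shown as examples of the 3 kinds of region and do not stand for the kinds as a whole. From the widest H2AK119ub1 region with both marks, 300 bases at the centre of the longest shared stretch are printed, and from the 2 widest regions with a single mark the 300 bases at their centre (mm10, plus strand). Windows over an untranslated region were left out, and capitals mark CpG dinucleotides. Both marks covered an Lhx9 intron at chr1:138841342-138841641. H2AK119ub1 alone covered an exon of Hic1 at chr11:75166746-75167045 and an intergenic stretch whose nearest start site was that of Lemd2 at chr17:27343518-27343817. H3K27me3 alone covered an intron of Dmrt1 at chr19:25575035-25575334 and an intron of Igf2bp1 at chr11:96001160-96001459.
Lhx9, both marks: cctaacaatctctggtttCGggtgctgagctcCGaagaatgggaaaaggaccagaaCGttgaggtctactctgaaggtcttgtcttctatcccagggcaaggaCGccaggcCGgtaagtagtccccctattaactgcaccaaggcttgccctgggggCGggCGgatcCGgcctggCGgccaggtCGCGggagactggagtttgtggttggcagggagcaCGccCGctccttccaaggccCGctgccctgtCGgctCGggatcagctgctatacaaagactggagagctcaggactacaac
Hic1, H2AK119ub1 alone: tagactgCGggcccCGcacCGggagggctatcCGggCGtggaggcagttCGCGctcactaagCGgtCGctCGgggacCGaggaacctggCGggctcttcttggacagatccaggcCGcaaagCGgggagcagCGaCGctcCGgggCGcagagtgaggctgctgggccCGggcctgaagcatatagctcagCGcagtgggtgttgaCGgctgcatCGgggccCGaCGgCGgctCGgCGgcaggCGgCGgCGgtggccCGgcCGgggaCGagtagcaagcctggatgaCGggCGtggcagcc
Intergenic on chromosome 17, H2AK119ub1 alone: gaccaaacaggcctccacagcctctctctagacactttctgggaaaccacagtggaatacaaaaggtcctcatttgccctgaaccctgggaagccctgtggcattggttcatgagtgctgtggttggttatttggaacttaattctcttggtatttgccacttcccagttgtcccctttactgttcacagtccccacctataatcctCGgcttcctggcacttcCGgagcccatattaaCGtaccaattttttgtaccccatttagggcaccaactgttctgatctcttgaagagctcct
Dmrt1, H3K27me3 alone: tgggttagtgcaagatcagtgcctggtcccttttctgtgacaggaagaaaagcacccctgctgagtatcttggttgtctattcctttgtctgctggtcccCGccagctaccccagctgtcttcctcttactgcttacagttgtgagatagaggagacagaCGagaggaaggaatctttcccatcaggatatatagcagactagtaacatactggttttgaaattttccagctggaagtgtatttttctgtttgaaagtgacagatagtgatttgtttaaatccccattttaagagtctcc
Igf2bp1, H3K27me3 alone: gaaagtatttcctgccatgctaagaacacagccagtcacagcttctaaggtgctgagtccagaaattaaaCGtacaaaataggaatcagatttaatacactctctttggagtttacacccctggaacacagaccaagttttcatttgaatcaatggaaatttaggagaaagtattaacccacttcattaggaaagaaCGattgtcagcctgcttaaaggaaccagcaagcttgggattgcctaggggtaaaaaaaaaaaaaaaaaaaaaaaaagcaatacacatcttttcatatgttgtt

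The 300 bases of Hic1 held 35 CpG and those of Lhx9 held 16. The window of the intergenic region held 3. The introns of Dmrt1 and Igf2bp1 each held 2. The windows with H2AK119ub1 alone thus included both the most and nearly the fewest CpG of the 5.

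The lists were alike in number of regions and in the mean fold enrichment of the regions listed. H2AK119ub1 covered 7.19 Mb and H3K27me3 8.42 Mb, with median widths of 327 and 385 bp. The mean fold enrichment over background, a linear ratio averaged over each region, was 3.29 for H2AK119ub1 and 3.20 for H3K27me3. H2AK119ub1 overlapped H3K27me3 at 4457 regions (26.5%, 95% interval 25.9 to 27.2). H3K27me3 overlapped H2AK119ub1 at 4261 regions (26.8%, 26.1 to 27.4). In bases, 27.05% of the H2AK119ub1 length was also covered by H3K27me3, and 23.1% of the H3K27me3 length by H2AK119ub1. Most of the area of each mark was therefore listed without the other. When at least 50% of a region had to overlap, the shares of regions were 18.4% for H2AK119ub1 and 15.1% for H3K27me3. Across the autosomes the share of H2AK119ub1 regions with H3K27me3 ranged from 15.5% on chromosome 16 to 38.8% on chromosome 13, and that of H3K27me3 regions with H2AK119ub1 from 20.9% on chromosome 8 to 37.9% on chromosome 13.

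Overlap went with width. Of the narrowest H2AK119ub1 regions, 200 to under 250 bp, 12.5% overlapped H3K27me3, while of those of 2000 bp or more 141 of 142 did (99.3%, 96.1 to 99.9). Among H3K27me3 regions the share went from 11.4% in the narrowest class to 93.5% (261 of 279, 90.0 to 95.9) in the widest. A wide region is more likely to touch another by its length alone. The share of regions whose centre base lay inside the other mark does not have this property, and it went from 9.84% to 69.7% for H2AK119ub1 and from 7.81% to 50.2% for H3K27me3 over the same classes. By both measures the widest regions of each mark were those most often shared. Regions with a higher −log10 q-value were also shared more often, from 14.3% between 1 and 1.5 to 52.0% at 4 or more (n = 127) for H2AK119ub1 and from 14.9% to 57.9% (n = 38) for H3K27me3.

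**Figure D1:**
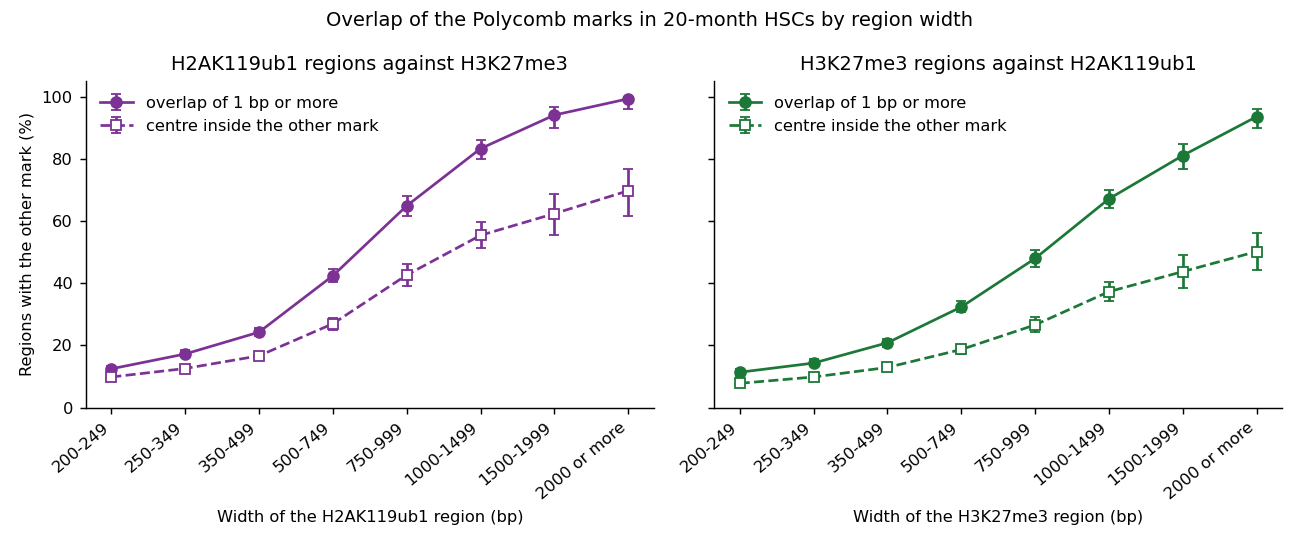
Share of regions with the other Polycomb mark (y axis, %) by width of the region (x axis, bp), for H2AK119ub1 regions (left) and H3K27me3 regions (right) of 20-month HSCs. Filled circles count an overlap of at least 1 bp, open squares a centre base inside the other mark, and bars are Wilson 95% intervals, which cover counting error only. Both measures are highest for regions of 2000 bp or more, at 99.3% and 69.7% for H2AK119ub1 and at 93.5% and 50.2% for H3K27me3.

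The marks rarely shared the same borders. The overlaps formed 4990 pairs of regions. In 60.2% of pairs the regions overlapped at a side only, in 25.8% the H2AK119ub1 region lay wholly inside the H3K27me3 region, and in 14.0% the reverse held. H3K27me3 was the wider of the pair in 60.2%. The median overlap was 290 bp (282 to 300) and the median distance between the centres was 281 bp. Most overlapping regions touched a single region of the other mark, 89.1% for H2AK119ub1 and 85.5% for H3K27me3. At the limit of the rule, 41 H2AK119ub1 regions overlapped H3K27me3 by 10 bp or less and another 41 lay within 10 bp without touching it. A 433 bp H2AK119ub1 region at the Notum promoter (chr11:120661225-120661657) shared 1 bp with H3K27me3. A 204 bp region at the Mfsd4b1 promoter (chr10:40024444-40024647) bordered H3K27me3 without sharing a base.

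Regions without the other mark differed in how far away it was. Among all H2AK119ub1 regions 10.8% had H3K27me3 within 1 kb without overlapping it and 30.7% had none within 100 kb. Among all H3K27me3 regions 14.8% had H2AK119ub1 within 1 kb without overlapping it and 14.1% had none within 100 kb. H2AK119ub1 regions far from H3K27me3 at 20 months were also seldom over H3K27me3 of 10-week HSCs, a list the classes did not use. The share over 10-week H3K27me3 was 96.6% for overlapping H2AK119ub1 regions, 81.8% for those within 1 kb, 42.4% from 1 to 10 kb, 11.02% from 10 to 100 kb and 6.74% beyond 100 kb. For H3K27me3 regions the same shares were 96.8%, 90.2%, 74.9%, 57.8% and 53.7%.

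**Figure D2:**
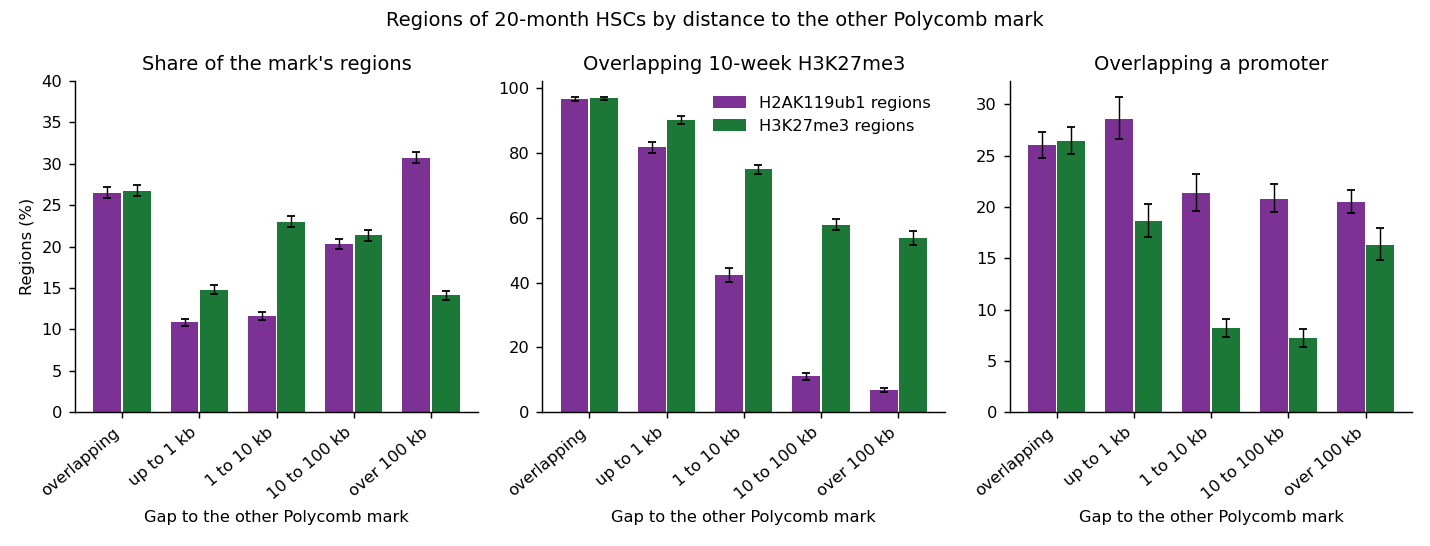
Regions of 20-month HSCs by the gap to the nearest region of the other Polycomb mark (x axis), as the share of all regions of the mark (left), the share over H3K27me3 of 10-week HSCs (middle) and the share over a promoter (right), each in % of regions with Wilson 95% intervals. Purple bars are H2AK119ub1 regions and green bars H3K27me3 regions. The share over 10-week H3K27me3 goes from 96.6% to 6.74% for H2AK119ub1 and from 96.8% to 53.7% for H3K27me3.

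Regions with both marks and with a single mark lay in different parts of genes. A promoter, 1 kb on either side of a protein-coding start site, was touched by 26.0% of overlapping H2AK119ub1 regions and 21.9% of those with H2AK119ub1 alone. For H3K27me3 the shares were 26.5% and 11.6%, and 51.7% of the regions with H3K27me3 alone were intergenic against 39.5% of the overlapping ones. H2AK119ub1 alone lay in introns more often than H2AK119ub1 with H3K27me3, at 35.6% against 24.0%. The median distance to a start site was 3426 bp for overlapping H2AK119ub1 regions, 7082 bp for H2AK119ub1 alone, 3189 bp for overlapping H3K27me3 regions and 15227 bp for H3K27me3 alone. In each of these pairs the intervals did not overlap.

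Base composition differed likewise. The CpG ratio, the number of CpG found over that expected from the C and G bases, had a median of 0.337 (0.327 to 0.347) in overlapping H2AK119ub1 regions and 0.222 (0.218 to 0.225) in H2AK119ub1 alone. In H3K27me3 regions it was 0.330 (0.323 to 0.337) and 0.209 (0.205 to 0.212). At least 10 CpG lay in the central 300 bp of 25.1% of overlapping H2AK119ub1 regions, 14.3% of H2AK119ub1 alone, 22.6% of overlapping H3K27me3 regions and 6.35% of H3K27me3 alone. The GC content separated the lone marks from each other. Its median was 51.1% in H2AK119ub1 alone and 46.6% in H3K27me3 alone, with 50.4% and 49.2% in the overlapping regions. Overlapping regions were also wider than lone ones, with medians of 489 against 298 bp for H2AK119ub1 and 624 against 345 bp for H3K27me3.

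H3K4me3 of 20-month HSCs overlapped few Polycomb regions. It was found at 2.96% of overlapping H2AK119ub1 regions, 2.13% of H2AK119ub1 alone and 2.98% of overlapping H3K27me3 regions. Of the regions with H3K27me3 alone it was found at 36 of 11665 (0.309%, 0.223 to 0.427).

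The widest regions with both marks lay at developmental regulators. The 5276 bp H2AK119ub1 region at Lhx9 (chr1:138839615-138844890), which encodes a LIM homeobox factor of gonad and limb, was enriched 3.50-fold and touched 3 H3K27me3 regions. A region of 4120 bp in Tbx2, a T-box factor of heart and limb, was enriched 3.93-fold. Among H3K27me3 regions the widest that overlapped was 7306 bp in Gata4 (chr14:63246519-63253824), the GATA factor of heart and endoderm, enriched 3.58-fold, followed by 5977 bp at Tbx15 and 5335 bp at Lhx9. These regions overlapped both H2AK119ub1 and H3K27me3 of 10-week HSCs.

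The widest regions with H2AK119ub1 alone were narrower. They were 2115 bp over an exon of Hic1 (chr11:75165838-75167952), which encodes a zinc-finger repressor, 1856 bp in an intergenic stretch of chromosome 17 and 1816 bp at the promoter of Scube3, which encodes a secreted protein. The Hic1 and Scube3 regions were enriched 3.43 and 3.46-fold and CpG ratios of 0.724 and 0.664. The intergenic region (chr17:27342740-27344595) lay 138271 bp from the Lemd2 start site, had a CpG ratio of 0.170, overlapped H3K4me3 and overlapped neither Polycomb mark at 10 weeks. The widest regions with H3K27me3 alone were intronic, 3355 bp in Dmrt1, 3116 bp in Igf2bp1 and 3018 bp in Crtac1. Their CpG ratios were 0.344, 0.281 and 0.286. All 3 overlapped 10-week H3K27me3 and none overlapped 10-week H2AK119ub1. The Igf2bp1 region was 536 bp from the nearest H2AK119ub1 region, and those in Dmrt1 and Crtac1 were 21092 and 24274 bp away.

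At gene level, a gene carried a mark when a region touched the promoter of any of its start sites. Of 20720 autosomal protein-coding genes, 2993 (14.4%) carried H2AK119ub1 and 1699 (8.20%) carried H3K27me3. Both marks were found at 1067 genes (5.15%), H2AK119ub1 alone at 1926 (9.30%) and H3K27me3 alone at 632 (3.05%), which left 17095 with neither. H3K27me3 was found at 35.6% (34.0 to 37.4) of the genes with H2AK119ub1, against 8.20% of all genes. H2AK119ub1 was found at 62.8% (60.5 to 65.1) of the genes with H3K27me3, against 14.4% of all genes. The counts depended on the limits set, with 598 genes carrying both marks within 500 bp of a start site. In regions with a −log10 q-value of 2 or more there were 311 genes with both marks, 943 with H2AK119ub1 alone and 388 with H3K27me3 alone.

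Genes counted with both marks mostly carried them at the same promoter. In 1042 of 1067 genes (97.7%) both marks touched the window of a single start site, and in 808 (75.7%) they shared bases within it. Widths and folds given for a gene are those of each mark's widest promoter region. These need not lie at the same start site, as at Auts2 and Lifr, where they lay far apart. The promoter regions of H2AK119ub1 were wider where H3K27me3 was also present, with a median of 545 bp (522 to 581) against 352 bp (341 to 363) at genes with H2AK119ub1 alone. Those of H3K27me3 had medians of 640 bp (582 to 673) and 479 bp (436 to 508). At a minority of the genes with a single mark the other lay within 5 kb, and at most of them it lay over 50 kb away. H3K27me3 lay 1 to 5 kb from a start site at 16.1% of the genes with H2AK119ub1 alone and over 50 kb away at 64.9%. H2AK119ub1 lay 1 to 5 kb away at 25.6% of the genes with H3K27me3 alone and over 50 kb away at 51.9%. The limit of 1 kb placed Cnih2 and Cdca7 just inside for H2AK119ub1, at 999 bp, and left Med13l and Selenoo just outside. For H3K27me3 it placed Hs3st6 and Phospho1 inside at 1000 bp and left Amer3 and Ltbp2 just outside.

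The classes differed in H3K4me3, which they were not chosen by. H3K4me3 was at a promoter of 24.4% of all genes at 20 months and 35.4% at 10 weeks. At 20 months it was found at 134 genes with both marks (12.6%, 10.7 to 14.7), at 555 with H2AK119ub1 alone (28.8%, 26.8 to 30.9), at 37 with H3K27me3 alone (5.85%, 4.28 to 7.97) and at 25.4% (24.7 to 26.0) of genes with neither. Among the marked classes H3K4me3 was most frequent with H2AK119ub1 alone and least frequent with H3K27me3 alone. When both Polycomb lists were limited to a −log10 q-value of 2 or more, it was at 24.7% of genes with H2AK119ub1 alone and 9.02% with H3K27me3 alone, with the order of the 3 marked classes the same. Under that limit the intervals of both marks (9.03 to 16.3) and of H3K27me3 alone (6.56 to 12.3) overlapped. In the 10-week list the order was the same, with 40.3% for H2AK119ub1 alone, 36.4% for neither, 25.2% for both marks and 9.65% for H3K27me3 alone.

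**Figure D3:**
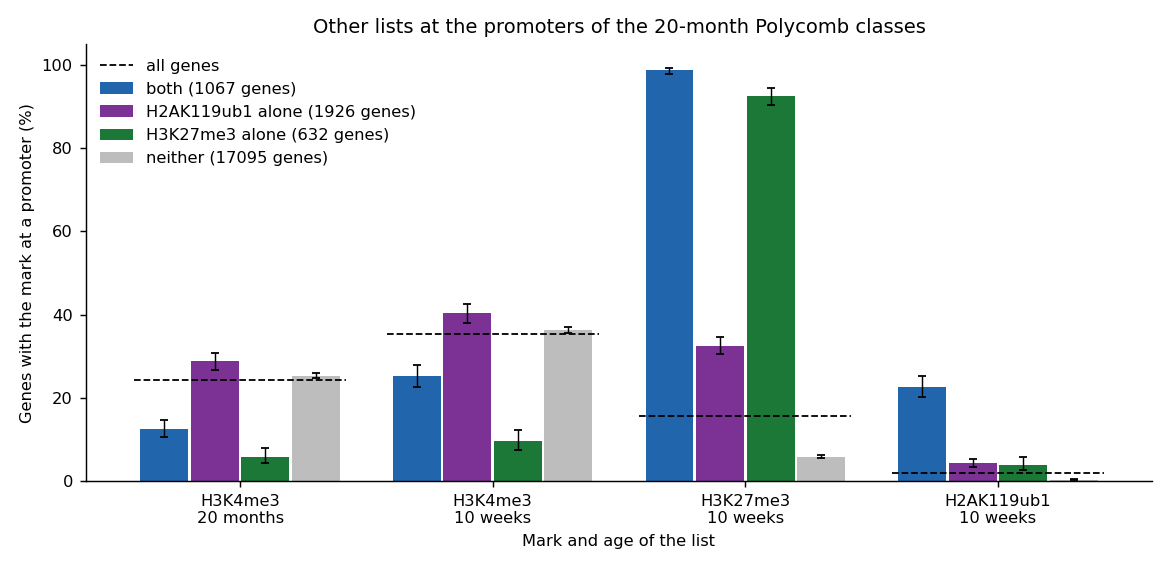
Share of genes (y axis, %) that carried H3K4me3 at 20 months and H3K4me3, H3K27me3 and H2AK119ub1 at 10 weeks (x axis), for the 4 classes of genes by Polycomb marks at 20 months. Bars have Wilson 95% intervals, which cover counting error only, and dashed lines give all 20720 genes. H3K27me3 at 10 weeks is at 98.7% of genes with both marks and 92.6% of those with H3K27me3 alone, but 32.6% of those with H2AK119ub1 alone.

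Of the 10-week Polycomb lists, that of H3K27me3 separated the lone marks and that of H2AK119ub1 did not. H3K27me3 at 10 weeks, which was at 15.8% of all genes, was found at 98.7% of genes with both marks, 92.6% of those with H3K27me3 alone, 32.6% of those with H2AK119ub1 alone and 5.84% of those with neither. For H2AK119ub1 alone the share was 57.9% among the 943 genes so classed when both lists were limited to a −log10 q-value of 2 or more. These are not a subset of the 1926. A gene with both marks joined this class when only its H3K27me3 fell below the limit. H2AK119ub1 at 10 weeks, at 2.00% of all genes, was found at 22.7%, 3.96%, 4.31% and 0.374% of these classes. Of the genes with both marks at 20 months 811 (76.0%) had H3K27me3 alone at 10 weeks, 242 had both marks and 14 had neither. Of the genes with H2AK119ub1 alone at 20 months 1280 (66.5%) had neither Polycomb mark at 10 weeks and 563 had H3K27me3 alone. Of those with H3K27me3 alone 560 (88.6%) had H3K27me3 alone at both ages. The list of H2AK119ub1 at 10 weeks held 2535 autosomal regions and that of H3K27me3 50640, so a gene without a mark there may lie below what the list could show, and age and yield of the lists cannot be told apart.

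Among genes with H2AK119ub1 alone, those with and without H3K27me3 at 10 weeks differed in H3K4me3 of 20-month HSCs. Of the 627 genes with it 17.4% (14.6 to 20.5) carried H3K4me3, and of the 1299 without it 34.3% (31.8 to 37.0) did. The promoter region of H2AK119ub1 had a median width of 410 bp in the former and 327 bp in the latter. The promoter CpG ratio was 0.593 in the former and 0.589 in the latter, with overlapping intervals.

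Among the marked classes the CpG ratio was lowest at genes with H3K27me3 alone, where it was near that of all genes. The CpG ratio over 1 kb on either side of the most 5′ start site had a median of 0.597 (0.586 to 0.607) with both marks and 0.591 (0.579 to 0.602) with H2AK119ub1 alone, against 0.482 (0.460 to 0.503) with H3K27me3 alone and 0.495 over all genes. A ratio under 0.35 was found at 10.1%, 15.9% and 25.5% of these 3 classes and at 37.4% of all genes. Genes with H3K27me3 alone were also longer, with a median of 44276 bp (36266 to 50063), than those with both marks (25061 bp, 22132 to 28461) or with H2AK119ub1 alone (24853 bp, 22700 to 27249). Over all genes the median was 17594 bp.

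Around the most 5′ start site, a base was tested every 250 bp to 10 kb on either side. At genes with both marks H2AK119ub1 was most frequent 875 bp downstream, at 36.2% of genes, and H3K27me3 1125 bp downstream, at 37.2%. Both marks were less frequent over the start site itself. Between 5 and 10 kb away H2AK119ub1 was still at 6.64% and H3K27me3 at 9.10% on average. At genes with H2AK119ub1 alone the mark was at 27.6% of genes 875 bp downstream and at 1.16% between 5 and 10 kb, and H3K4me3 was at 8.36% at 375 bp downstream. At genes with H3K27me3 alone the mark was at 26.6% of genes 875 bp upstream and 26.3% 875 bp downstream. Between 1 and 5 kb away it was more frequent downstream, at 10.2% on average against 6.63% upstream. The marks extended farther from the start site where both were present.

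**Figure D4:**
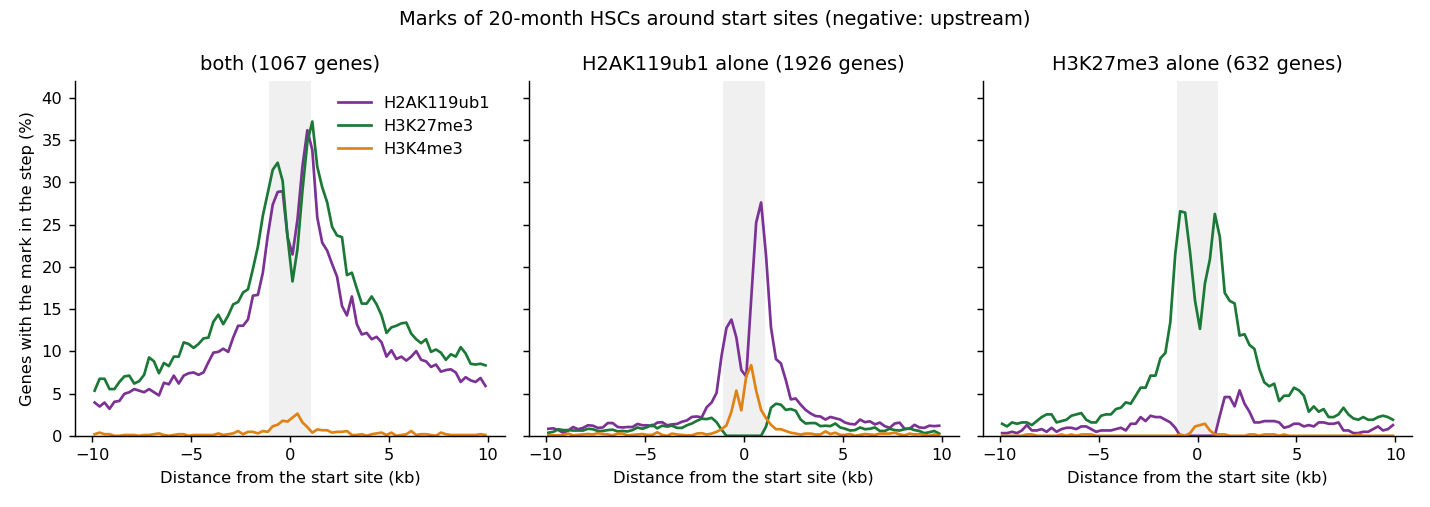
Share of genes (y axis, %) with H2AK119ub1 (purple), H3K27me3 (green) and H3K4me3 (orange) of 20-month HSCs at each distance from the most 5′ start site (x axis, kb, negative upstream), for genes with both marks (left), H2AK119ub1 alone (middle) and H3K27me3 alone (right). The grey band is the promoter window that defined the classes, in which the missing mark is absent by definition. The curves for both marks reach 36.2% and 37.2% and decline slowly to 10 kb, whereas H2AK119ub1 alone reaches 27.6% and averages 1.16% beyond 5 kb.

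The genes with both marks that ranked highest by promoter region width, taken from the narrower mark, encoded transcription factors of embryonic patterning. They included Lhx9, with regions of 5276 bp for H2AK119ub1 and 5335 bp for H3K27me3, and Tbx15, a T-box factor of the skeleton, with 3878 and 5977 bp. Dlx6, a homeobox factor of the face, had 2972 and 2690 bp. Npas3, a factor of neurons, had 2431 and 2813 bp, and Tbx4, the T-box factor of the hindlimb, had 3376 and 2423 bp. The regions given for Npas3 and for Tbx4 lay side by side and did not share a base. Fold enrichments were between 3.50 and 3.75 for H2AK119ub1 and between 3.16 and 3.73 for H3K27me3. These 5 genes carried H3K27me3 at 10 weeks, and Lhx9, Tbx15, Npas3 and Tbx4 also carried H2AK119ub1. Of the 5 Lhx9 alone carried H3K4me3 at 20 months.

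The widest promoter regions of H2AK119ub1 alone belonged to genes of mixed function. They included Grrp1 (chr4:134251784-134254601, 2818 bp, 3.56-fold), Scube3 (1816 bp, 3.46-fold), Tada2b (1764 bp, 3.88-fold), an adaptor of a histone acetyltransferase complex, and Nrxn2 (1762 bp, 3.49-fold), a synaptic adhesion protein. None of these 4 carried H3K4me3 at 20 months. Grrp1 alone of the 4 lacked H3K27me3 at 10 weeks.

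H3K27me3 alone was widest at Irx1 (chr13:71960976-71962925, 1950 bp, 3.52-fold), an Iroquois homeobox factor, and at Ano4 (1919 bp, 3.21-fold), of the anoctamin family of membrane proteins. Asb8 (1810 bp, 3.26-fold), Meox2 (1801 bp, 3.46-fold), a homeobox factor of mesoderm, Kcnj8 (1701 bp, 3.32-fold), a potassium channel subunit, and Nodal (1607 bp, 3.04-fold), a ligand of embryonic patterning, followed. All 6 carried H3K27me3 at 10 weeks. Asb8 also carried H2AK119ub1 at 10 weeks, and Ano4 alone of the 6 carried H3K4me3 at 20 months.

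Families of transcription factors were then counted against the shares of all genes, 5.15% with both marks, 9.30% with H2AK119ub1 alone and 3.05% with H3K27me3 alone. All 12 LIM homeobox genes carried both marks, among them Lhx1 (3.68-fold for H2AK119ub1 and 3.63-fold for H3K27me3), Lhx2, Lhx4 and Lhx9. Both marks were at 8 of 9 PAX genes, led by Pax7 (3.86 and 3.56-fold) and Pax9 (3.84 and 3.89-fold), and at 11 of 15 T-box genes, led by Tbr1 (4.11 and 3.52-fold), a factor of cortical neurons. None of these 3 families had a member with H2AK119ub1 alone. Tbx21, the T-box factor of T helper cells, was the member with H3K27me3 alone (3.13-fold, 886 bp). Of 14 NKX genes 10 carried both marks, led by Nkx2-1 (3.97 and 3.16-fold), a factor of thyroid and lung, and Nkx6-2 and Nkx1-2 carried H3K27me3 alone. Of 5 GATA genes Gata4, Gata5 and Gata6 carried both marks, and Gata2 and Gata3, which act in blood, carried neither.

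Other families were split between the classes. Of 39 Hox genes 23 carried both marks and 6 carried H2AK119ub1 alone. The highest folds with both marks were at Hoxa13 (4.74-fold for H2AK119ub1, 3.23-fold for H3K27me3), Hoxb13 (4.63 and 3.63-fold) and Hoxd13 (4.53 and 3.40-fold), which act at the posterior end of the body axis. H2AK119ub1 alone was found with folds from 3.07 to 3.64, among them Hoxb9, Hoxb6 and Hoxa4. Of 41 forkhead genes 12 carried both marks, such as Foxl1 (4.02 and 3.25-fold), 9 carried H2AK119ub1 alone, such as Foxj1, Foxk2 and Foxo1, and 3 carried H3K27me3 alone (Foxc2, Foxi2 and Foxd1). The SOX family had 7 of 18 with both marks, led by Sox9 (3.83 and 3.02-fold), a factor of cartilage, and Sox4, Sox5, Sox7 and Sox13 with H2AK119ub1 alone. The Iroquois and sine oculis genes had 7 of 12 with both marks, Irx4 (4.76-fold) and Six2 (3.18-fold) with H2AK119ub1 alone, and 2 with H3K27me3 alone, among them Irx1. Of 30 lineage factors of the bHLH family 14 carried both marks, 5 H2AK119ub1 alone and 3 H3K27me3 alone (Olig1, Myod1 and Neurog3). KLF genes had a different make-up, with Klf14 alone carrying both marks and Klf1, Klf4, Klf10 and Klf15 of the 16 carrying H2AK119ub1 alone.

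The Hox clusters also formed the longest runs of neighbouring genes with both marks, named here after their values were seen. Evx2 and 9 Hoxd genes stood 10 in a row on chromosome 2, and 9 Hoxc genes stood in a row on chromosome 15. The next longest runs were 4 genes, from Hoxa10 to Evx1 on chromosome 6 and Nkx2-4, Nkx2-2, Pax1 and Foxa2 on chromosome 2. With H2AK119ub1 alone the longest run was 6 genes on chromosome 15, from Gm5475 to Pou6f1.

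**Figure D5:**
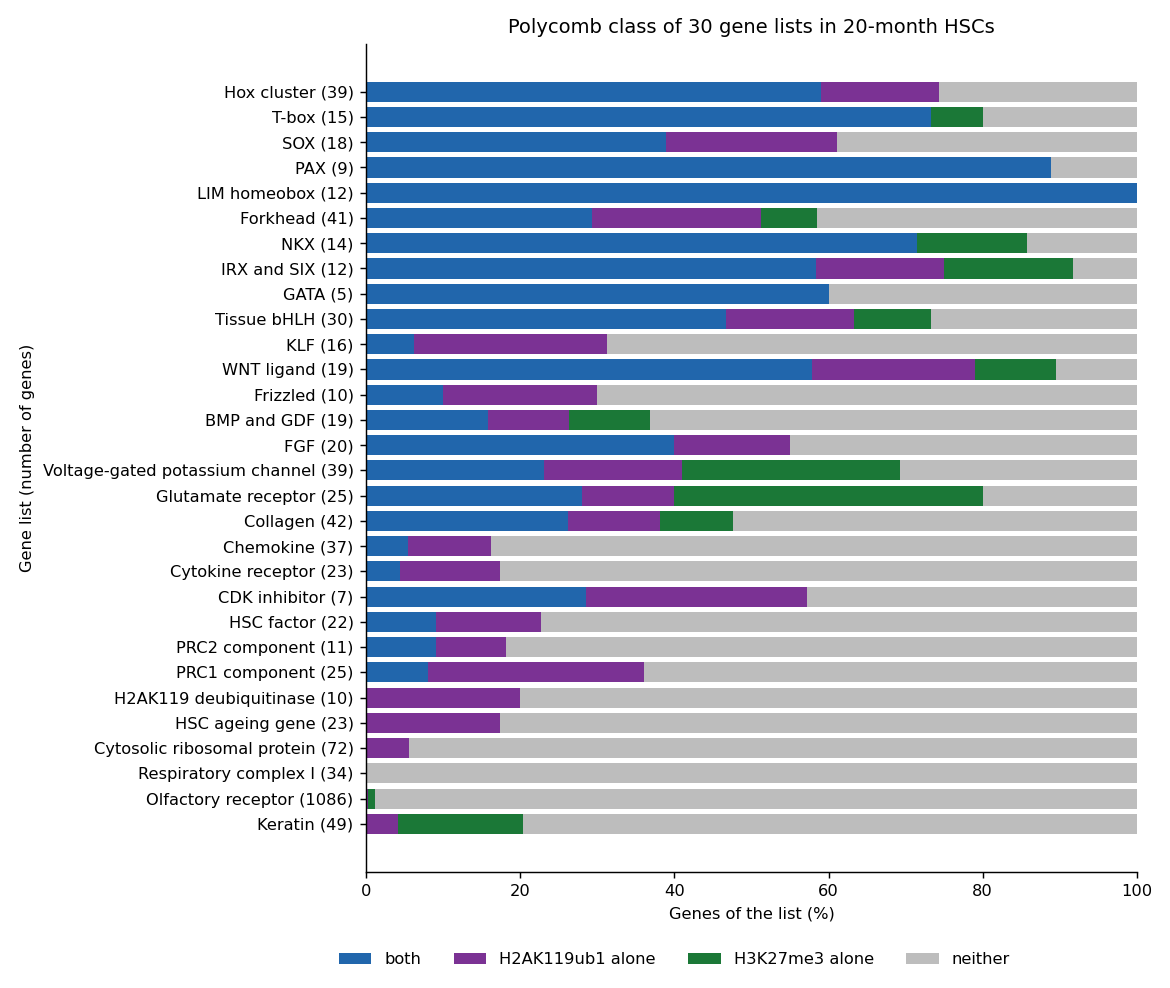
Polycomb class at 20 months of the genes in 30 lists, as % of the genes of each list (x axis), with the number of autosomal genes in brackets. Blue is both marks, purple H2AK119ub1 alone, green H3K27me3 alone and grey neither. The LIM homeobox list is wholly blue, glutamate receptors have the largest green share (40.0%), and respiratory complex I is wholly grey.

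Secreted ligands were counted beside the WNT receptors of the Frizzled family. Of all genes 5.15% carried both marks, 9.30% H2AK119ub1 alone, 3.05% H3K27me3 alone and 82.5% neither mark. Of 19 WNT ligands 11 carried both marks, led by Wnt1 (3.65 and 3.28-fold), 4 carried H2AK119ub1 alone (Wnt3a, Wnt5b, Wnt9a and Wnt10b) and 2 carried H3K27me3 alone (Wnt7a and Wnt10a). Of 10 Frizzled receptors Fzd10 carried both marks and Fzd5 and Fzd7 carried H2AK119ub1 alone, which left 70.0% with neither. FGF ligands had 8 of 20 with both marks, led by Fgf20 (3.73 and 3.31-fold), and 3 with H2AK119ub1 alone. BMP and GDF ligands had 3 of 19 with both marks (Gdf6, Gdf7 and Gdf10), Bmp4 and Bmp7 with H2AK119ub1 alone and Bmp3 and Bmp6 with H3K27me3 alone. Of 37 chemokines Cxcl12, which retains HSCs in the marrow, carried both marks (4.10 and 3.56-fold) together with H3K4me3, as did Cxcl14 without H3K4me3. Cxcl5, Cx3cl1, Cxcl16 and Ccl17 carried H2AK119ub1 alone. The chemokine shares, 5.41% with both marks and 10.8% with H2AK119ub1 alone, were near those of all genes.

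Potassium channels, which act in neurons, heart and epithelia, and glutamate receptors, which act at synapses, had members in each class. Over all genes 5.15% carried both marks, 9.30% H2AK119ub1 alone and 3.05% H3K27me3 alone. Of 39 voltage-gated potassium channel genes 11 carried H3K27me3 alone, such as Kcnq1 (3.73-fold) and Kcna6 (3.67-fold), 9 carried both marks and 7 H2AK119ub1 alone. Of 25 glutamate receptors 10 carried H3K27me3 alone (40.0%), such as Grik2 (3.94-fold) and Grin2b (3.65-fold), 7 carried both marks and 3 H2AK119ub1 alone (Grik3, Grik5 and Grin3b). Keratins, the filaments of epithelia, had 8 of 49 with H3K27me3 alone, such as Krt12 (3.81-fold) and Krt19 (3.60-fold), 2 with H2AK119ub1 alone (Krt1 and Krt8) and none with both. Olfactory receptors, whose promoters are poor in CpG (median CpG ratio 0.109), had 10 of 1086 with H3K27me3 alone (0.921%), below the share of all genes. Olfr94 carried H2AK119ub1 alone and Olfr95 both marks. Collagen genes had 11 of 42 with both marks (26.2%), 5 with H2AK119ub1 alone (11.9%, near the share of all genes) and 4 with H3K27me3 alone (9.52%).

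Of 22 transcription factors of HSCs 16 carried H3K4me3, against 24.4% of all genes. Both Polycomb marks were at 2 (9.09%, against 5.15% of all genes) and H2AK119ub1 alone at 3 (13.6%, against 9.30%). Erg (3.38 and 3.40-fold) and Gfi1 (3.32 and 3.14-fold) carried both marks, Erg with H3K4me3. Runx1 (3.76-fold), Cebpa (3.13-fold) and Fli1 (2.99-fold) carried H2AK119ub1 alone together with H3K4me3, and no gene of the list carried H3K27me3 alone, which was at 3.05% of all genes. Of 23 cytokine receptors Lifr carried both marks (4.35%) and Ifngr2, Il6ra and Lepr carried H2AK119ub1 alone (13.0%), near the shares of all genes. Of 7 cyclin-dependent kinase inhibitors Cdkn2a (3.56 and 3.89-fold) and Cdkn2b (3.30 and 3.36-fold), which arrest the cell cycle, carried both marks. Cdkn1b and Cdkn2c carried H2AK119ub1 alone with H3K4me3. Among 23 genes reported to rise with age in HSCs Mt1, Jam2, Art4 and Itgb3 carried H2AK119ub1 alone (17.4%, against 9.30% of all genes). None carried H3K27me3, a count near what a share of 8.20% gives in a list of this size.

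The genes of the Polycomb system itself were counted next, against 8.20% of all genes with H3K27me3 and 9.30% with H2AK119ub1 alone. Of 25 genes of PRC1, Cbx8 (3.77 and 3.33-fold) and Auts2 (3.64 and 3.08-fold) carried both marks with H3K4me3. H2AK119ub1 alone was at 7, with folds from 2.96 to 3.41, among them Pcgf1, Rybp and Pcgf6. Of 11 genes of PRC2 Epop carried both marks and Phf19 carried H2AK119ub1 alone. Of 10 genes of the H2AK119 deubiquitinases and their partners Foxk2 and Asxl3 carried H2AK119ub1 alone. Among housekeeping genes 4 of 72 cytosolic ribosomal protein genes carried H2AK119ub1 alone (among them Rps21, Rpl10a and Rpl19) and none carried H3K27me3, and none of the 34 genes of respiratory complex I carried either mark.

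The label of the cells was checked on promoters, since no expression was measured here. H3K4me3 of 20-month HSCs was at 24.4% of all genes. It was found at 9 of 12 genes of HSCs, among them Procr, Mecom, Hlf and Meis1, and not at Ly6a, Slamf1 or Gata2. It was found at none of 4 genes that the sort selects against and at none of 14 markers of erythroid, myeloid and megakaryocytic cells and of other tissues. Given the share over all genes, none of 4 says little about the label. Of 5 lymphoid genes Ebf1 carried it, along with both Polycomb marks, and Pax5 carried both Polycomb marks without it. Klf1, the erythroid factor, and Runx1 carried H2AK119ub1 alone, and the remaining markers carried neither Polycomb mark.

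The same pair of lists at 10 weeks was far more unequal. There 1900 of 2535 H2AK119ub1 regions (74.95%, 73.2 to 76.6) overlapped H3K27me3, and 1287 of 50640 H3K27me3 regions (2.54%, 2.41 to 2.68) overlapped H2AK119ub1. At promoters 357 genes carried both marks, 57 carried H2AK119ub1 alone and 2907 carried H3K27me3 alone. The class with H2AK119ub1 alone was thus the largest of the 3 marked classes at 20 months and the smallest at 10 weeks. The size of the lists moved with the ages, and its part in this was not tested.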

How the data were processed

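ChIP-seq regions of HSCs were analysed from 1 pooled list per mark and age, and groups were taken from the labels. The authors sonicated cross-linked chromatin, digested it with micrococcal nuclease and aligned reads to mm10 with Bowtie2, and MACS2 2.2.6 is among the tools of the submitters' processing notes. The settings of the peak caller are not given in the sources used here. The deposited values are the fold enrichment as a linear ratio and the −log10 q-value of each region. Names within the broad lists carry a single library number, and whether the second library entered is uncertain. Read depth cannot be read from a list and is unknown.

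Regions of chromosomes 1 to 19 were compared by shared bases (1 bp or more) in Python 3.11.15 with pandas 2.3.3, tested on simulated intervals and checked with bedtools 2.31.1. Start sites were those of protein-coding transcripts in the GENCODE M21 basic annotation (39540 sites of 20720 genes). Base composition was read from mm10 with pysam 0.24.0. Intervals are Wilson 95% intervals. No test was run, since each mark and age had 1 list.

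Named genes were the 6 with the widest promoter region of each class, the 3 widest regions of each list and class, those at the limits of the rule, and members of 30 gene lists (all when a class held 5 or fewer, otherwise those with the highest fold enrichment, by H2AK119ub1 where present). The classes, lists and rule were chosen with earlier results of these data known. A few genes and regions that the rule names are not reported here. Alternatives were another overlap, a −log10 q-value of at least 2, equal numbers of regions, joined regions, other promoters and the inclusion of chromosome X.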

Additional observations from a re-analysis of the deposited data

Results flagged for a closer look

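The comparison was made on chromosomes 1 to 19, and both marks were also listed on chromosome X at 20 months. It held 972 H2AK119ub1 regions, of which 138 (14.2%, 12.1 to 16.5) overlapped H3K27me3, and 4493 H3K27me3 regions, of which 139 (3.09%, 2.63 to 3.64) overlapped H2AK119ub1. Both shares were below those of the autosomes, 26.5% and 26.8%. No control list of either mark was analysed, and the difference was not tested.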

How the results depend on the processing

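Of 52 alternatives 24 stayed within the interval of the value, or within 1.5 times for a count, and 28 moved out of it. The cause was not tested unless the construction gives it. The share of H2AK119ub1 regions with H3K27me3 was 18.4% when at least 50% of the region had to overlap, 22.7% under a −log10 q-value minimum of 2 in both lists, 27.4% with equal numbers of regions, 20.9% with regions within 1 kb joined and 25.9% with chromosome X. The share of H3K27me3 regions with H2AK119ub1 was 15.1%, 25.3%, 23.4% and 21.5% under the same settings apart from equal numbers, which kept it within its interval. Genes with both marks numbered 598 with promoters of 500 bp on either side. Under that q-value minimum the 3 classes held 311 genes with both marks, 943 with H2AK119ub1 alone and 388 with H3K27me3 alone. H3K4me3 was at 15.9% of genes with both marks and 33.6% of those with H2AK119ub1 alone with promoters of 2.5 kb, at 9.74%, 25.9% and 4.14% of the 3 classes with the most 5′ start site only, and at 24.7% with H2AK119ub1 alone and 9.02% with H3K27me3 alone at the stricter q-value. H3K27me3 at 10 weeks was at 26.0% of genes with H2AK119ub1 alone with promoters of 2.5 kb. At the stricter q-value, which also moved genes between classes, it was at 57.9% with H2AK119ub1 alone and 97.9% with H3K27me3 alone. The promoter CpG ratio was 0.619, 0.611 and 0.513 with the highest ratio among start sites, and 0.612 with both marks and 0.547 with H3K27me3 alone at the stricter q-value. The order of the classes in H3K4me3 and in CpG ratio was the same under each alternative run, but not every step was separated. The CpG ratio intervals of both marks and H2AK119ub1 alone overlapped in each run. At the stricter q-value the H3K4me3 intervals of both marks and H3K27me3 alone also overlapped. No paired analysis was possible because only 1 list per mark was analysed here at each age.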
